A study of Mus musculus with 7 samples.

Results

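Integrin and laminin genes were examined in sorted mouse glioma cells that differed in the number of Ptprd alleles. The genes were chosen by symbol alone. They are the integrin α subunits with a numbered symbol and Itgav, the integrin β subunits and the laminin α, β and γ chains, each taken where at least 1 probe set of the array names it as the only gene. This gave 27 of the 12393 genes named on the array, 17 of them integrin subunits and 10 of them laminin chains. Each gene was read from its brightest probe set, by the mean of all 7 arrays.

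Integrins are cell surface receptors made of an α and a β subunit. They bind proteins of the extracellular matrix and couple them through adaptor proteins to the actin cytoskeleton. Laminins are secreted trimers of an α, a β and a γ chain and are the main adhesive proteins of basement membranes, in the brain those around blood vessels and under the pia. Integrin α3, α6 and α7 are laminin receptors, whereas αv subunits bind proteins with an RGD motif, such as vitronectin and fibronectin. Glioma cells are known to migrate along vessels and their laminin-rich basement membranes, and integrin α6 is known as a surface marker of human glioblastoma stem cells.

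The 7 arrays comprised 3 from Ptprd-/-p16-/- tumours (null), 2 from Ptprd+/-p16-/- tumours (heterozygous) and 2 from Ptprd+/+p16-/- tumours (wild type). All mice, the wild-type group included, thus lacked p16, an inhibitor of the cell cycle, and their strain background mixed C57/BL6 with FVB/N. In all groups gliomas were induced on postnatal days 1 to 3 by cerebral injection of RCAS PDGFB GFP, a retroviral vector for platelet-derived growth factor B and a fluorescent marker, which infects only cells with the tv-A receptor, here expressed from the Nestin promoter. Mice were examined when symptoms appeared, or else 12 weeks after injection, and live tumour cells with GFP were sorted. Replicates are labelled biological, but whether each is 1 mouse is not stated, so a p-value here measures array-to-array spread only.

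Values are deposited log2 expression values, normalised to a common distribution. They compare 1 probe set across arrays and give no order of levels between genes. Ptprd itself was at 9.61, 8.95 and 9.93 in null, 9.42 and 9.57 in heterozygous, and 10.86 and 10.89 in wild-type cells (log2). All 5 deficient arrays lay below both wild-type arrays, and the null and heterozygous arrays overlapped. The log2 difference from wild type was -1.37 ± 0.26 in null (SE, limma adjusted p = 0.882, over a comparison in which no gene passed) and -1.37 ± 0.28 in heterozygous cells (adjusted p = 0.0311). Whether its probe set lies outside the deleted part is not known here. Pdgfra and Olig2, defining genes of the oligodendrocyte progenitor state of these tumours, were at 12.90 to 13.74 and at 10.78 to 11.67 on all 7 arrays. Null replicate 1 and heterozygous replicate 1 carried both Xist, which coats an inactive X, at 12.73 and 11.16, and Y-linked transcripts, at a mean of 7.14 and 7.71. Calls are also given without these 2 arrays. Markers of microglia and macrophages were higher in the heterozygous arrays. The summed linear level of 19 listed markers ran from 1021 to 1477 in null, from 2449 to 3192 in heterozygous and from 910 to 1222 in wild-type arrays. The defining markers Ptprc and Csf1r followed. Ptprc was at 4.33 to 4.58 in null and 5.88 and 5.62 in heterozygous arrays, against 4.32 and 4.38 in wild-type arrays (log2). Of the 17 tested, 14 rose in heterozygous against wild-type cells (82.4%, beside 4.2% of all genes that rose). Of these 14, 3 (Ptprc, Cd68 and Cd14) exceeded the array's 30th percentile only on the heterozygous arrays, and so were tested only through the group where they are high. Markers of oligodendrocyte progenitors were lower there, with a summed level over 7 markers of 47610 to 50749 in null, 32183 to 40279 in heterozygous and 53350 to 53558 in wild-type arrays.

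Of the 27 genes, 17 exceeded, on 2 or more arrays, the level below which 30% of probe sets of that array lie (its 30th percentile), and were tested, 12 integrin subunits and 5 laminin chains. The other 10 were dim and not tested: Itga4, Itga7, Itgb2, Itgb3, Itgb6, Lama1, Lama3, Lamb2, Lamb3 and Lamc3. limma was fitted with the 3 genotypes as groups to all 9243 genes that passed this filter, and p-values were adjusted over all of them by the Benjamini-Hochberg method with a threshold of 0.05.

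Itga6 was the integrin gene with the clearest difference between genotypes, and it was high in the heterozygous arrays. Itgb5 rose in heterozygous against wild-type cells to a smaller extent. No other integrin or laminin gene passed the threshold in any pair of genotypes. In heterozygous against wild-type cells 2 of the 17 tested genes rose and 0 fell, beside 4.2% of all genes tested that rose, 5.95% that fell and 10.1% in either direction. This share of members, 11.8%, is near that background, so it is no result about the family. The median log2 difference of the 17 genes was 0.07, against -0.04 for all 9243 genes. In null against heterozygous cells 0 rose and 1 fell (5.88%, beside 8.96% of all genes, of which 5% rose and 3.96% fell), and in null against wild-type cells limma called 0 of 17, beside 0% of all genes, with 2 at an unadjusted p under 0.05. The F test for any difference among the genotypes called 1 of the 17 genes, Itga6, beside 5.65% of all genes.

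**Figure D1:**
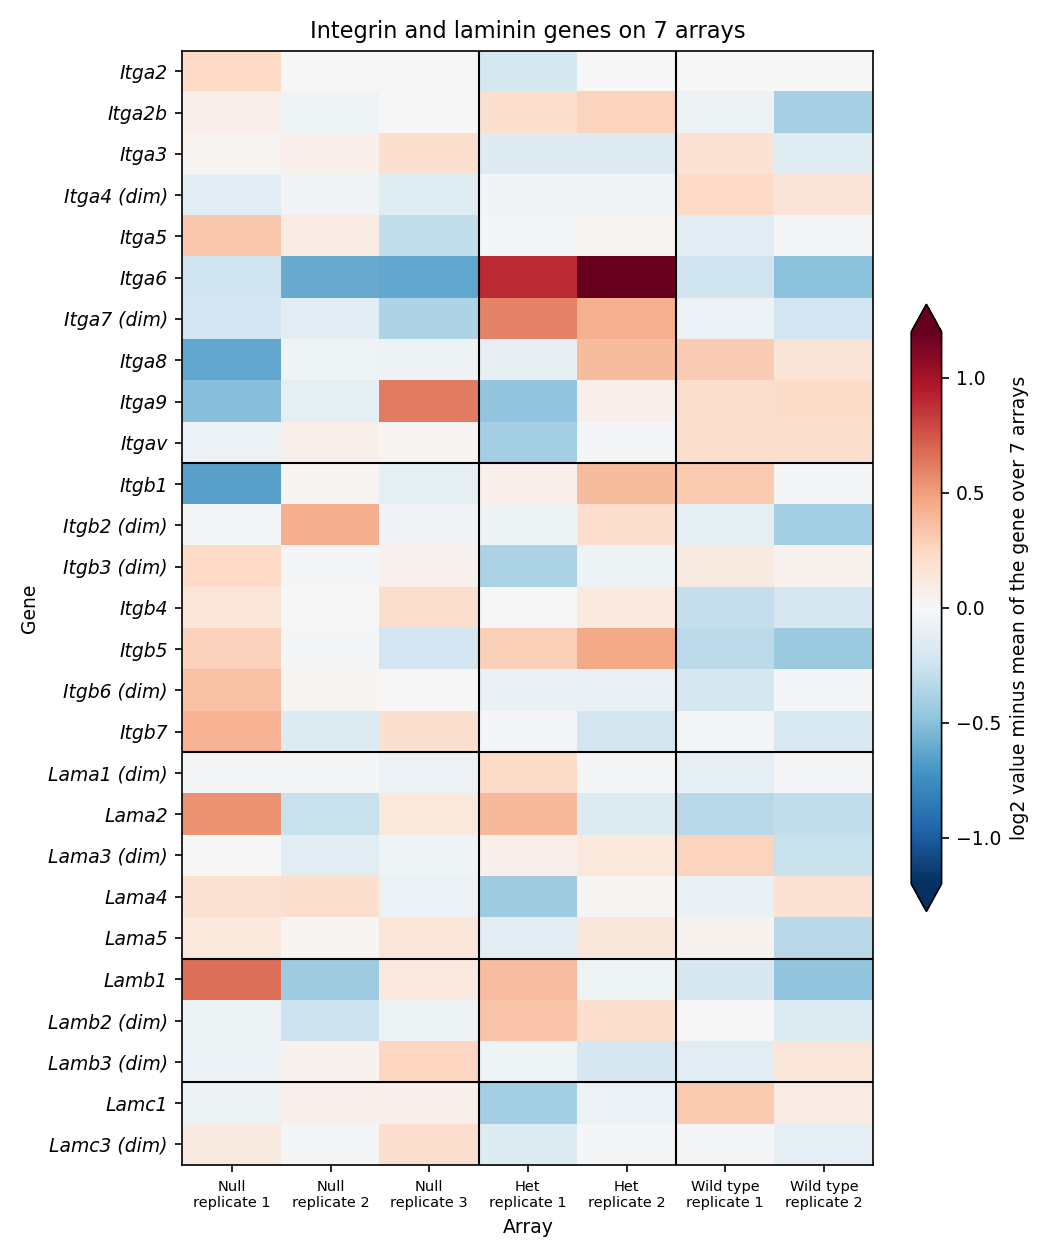
Integrin and laminin genes (rows, grouped as integrin α, integrin β, laminin α, laminin β and laminin γ) on the 7 arrays (columns), coloured by the log2 value minus the mean of that gene over the 7 arrays; genes marked dim were not tested. Itga6 is at 4.77 to 5.16 in the null and 6.29 and 6.69 in the heterozygous arrays, against 5.16 and 4.90 in the wild-type arrays.

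Itga6 encodes integrin α6, which pairs with β1 or β4 to form laminin receptors, and lies on chromosome 2 (71786886 to 71858427, GRCm38.p6). Its values were 5.16, 4.79 and 4.77 in null cells and 6.29 and 6.69 (log2) in heterozygous cells, against 5.16 and 4.90 in wild-type cells. Both heterozygous arrays lay above every null and wild-type array, and the null and wild-type arrays overlapped. Heterozygous cells averaged 6.49 ± 0.28 and wild-type cells 5.03 ± 0.18 (log2, SD, n = 2 each), a 2.75-fold difference (log2 difference 1.46 ± 0.20, SE, limma adjusted p = 0.0106). In null cells, at 4.91 ± 0.22 (SD, n = 3), Itga6 fell by 1.58 ± 0.18 on the log2 scale against heterozygous cells (limma adjusted p = 0.00761), a comparison that shares the heterozygous arrays with the one before. Null cells differed from wild type by -0.12 (log2, 95% interval -0.54 to 0.30). Null replicates 2 and 3 lay below the 30th percentile of their arrays, so the folds are taken against dim levels and their exact size is uncertain.

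The second probe set of Itga6 was at 3.74, 3.92 and 4.08 in null cells and 4.91 and 5.23 in heterozygous cells, against 3.998 and 3.58 in wild-type cells (log2). In a fit of all 16262 probe sets that passed the filter it was 1.28 higher in heterozygous than in wild-type cells (limma adjusted p = 0.0167) and lower by 1.16 in null than in heterozygous cells (log2 difference -1.16, limma adjusted p = 0.0201). This second probe set lay above the 30th percentile only on the heterozygous arrays, so it was tested only through the group where it is high. Without wild type replicate 2 the call of the brighter probe set in heterozygous against wild-type cells ended at a log2 difference of 1.33, with 1 wild-type array left and assumed to vary like the other groups (limma adjusted p = 0.0951, over the other settings tried 0.00711 to 0.0951). Without null replicate 1 and heterozygous replicate 1 the differences were larger, 1.66 against wild type and -1.91 for null against heterozygous (log2), but neither passed (limma adjusted p = 0.0791 and 0.0977).

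Integrin α6 is also made by endothelium. The summed linear level of 12 endothelial markers was 449 to 564 in null, 476 to 571 in heterozygous and 521 to 554 in wild-type arrays, and limma called 0 of the 7 that were tested in any pair of genotypes (0, 0 and 1 at an unadjusted p under 0.05 for heterozygous against wild-type, null against wild-type and null against heterozygous cells). Of all genes, 10.1%, 0% and 8.96% were called in these comparisons. The defining endothelial genes Pecam1 and Cdh5 lay below the 30th percentile on all 7 arrays. Like Itga6, the macrophage markers given above and some markers of astrocytes were higher in the heterozygous arrays, whereas the progenitor markers were lower there. The summed level of 8 astrocyte markers was 2247 to 3058 in null, 3964 to 4309 in heterozygous and 2371 to 2648 in wild-type arrays. Gfap, the defining astrocyte marker, was at 5.24, 5.30 and 4.92 in null, 6.73 and 6.50 in heterozygous, and 5.30 and 4.95 in wild-type arrays (log2). Of the 8 astrocyte markers, 3 rose in heterozygous against wild-type cells (37.5%, beside 4.2% of all genes that rose) and 5 did not pass. Among these 5 were Slc1a2, Slc1a3 and Fgfr3 with log2 differences of -0.40, -0.16 and 0.06. Of the 3 that rose, Aldh1l1 exceeded the 30th percentile only on the heterozygous arrays, and so was tested only through the group where it is high. The part of macrophages, astrocytes and progenitors in the level of Itga6 was not tested. In these bulk samples fewer cells of a type and less RNA per cell cannot be told apart.

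Neither β partner of integrin α6 passed the adjusted threshold. Itgb1, the shared β subunit of most matrix-binding integrins, was at 8.18, 8.86 and 8.72 in null cells and 8.90 and 9.22 in heterozygous cells, against 9.15 and 8.82 in wild-type cells (log2). The heterozygous and wild-type arrays overlapped, and the log2 difference was 0.07 with a 95% interval of -0.51 to 0.65. The null arrays lay below the heterozygous arrays (log2 difference -0.47, limma adjusted p = 0.220). In a second probe set the heterozygous arrays lay above and the null arrays below the wild-type arrays. Its log2 differences against wild type were 0.14 in heterozygous and -0.18 in null cells (limma adjusted p = 0.483 and 0.817, fit of all probe sets). Null differed from heterozygous cells by -0.32 (adjusted p = 0.113). In the remaining probe sets the groups overlapped. Itgb4, whose product pairs only with α6, was at 4.97, 4.82 and 5.03 in null cells, 4.82 and 4.93 in heterozygous cells, and 4.53 and 4.62 in wild-type cells (log2). All deficient arrays lay above both wild-type arrays, with mean log2 differences of 0.37 in null and 0.30 in heterozygous cells, and 95% intervals of 0.12 to 0.62 and 0.03 to 0.58. Both intervals lie above 0, but neither difference passed limma's adjustment (adjusted p = 0.882 and 0.135). Itgb4 lay above the 30th percentile on 3 arrays only, none of them wild type.

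The other laminin receptors differed among themselves. Itga7, which encodes integrin α7, the main laminin receptor of muscle, lay below the 30th percentile on all 7 arrays. Its values were nonetheless 4.01, 4.11 and 3.87 in null cells and 4.83 and 4.67 in heterozygous cells, against 4.17 and 4.01 in wild-type cells (log2). The heterozygous arrays again lay above all others. With no filter on dim genes Itga7 passed limma's threshold in heterozygous against wild-type cells (log2 difference 0.65, adjusted p = 0.0315) and in null against heterozygous cells (-0.75, adjusted p = 0.0190). Itga3, for integrin α3, was at 5.94, 5.97 and 6.09 in null, 5.75 and 5.75 in heterozygous, and 6.08 and 5.76 in wild-type cells (log2), with a log2 difference of -0.17 for heterozygous against wild type (limma adjusted p = 0.441). The 2 other probe sets of Itga3, 1 of them dim, differed by 0.24 and 0.30 in the opposite direction.

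**Figure D2:**
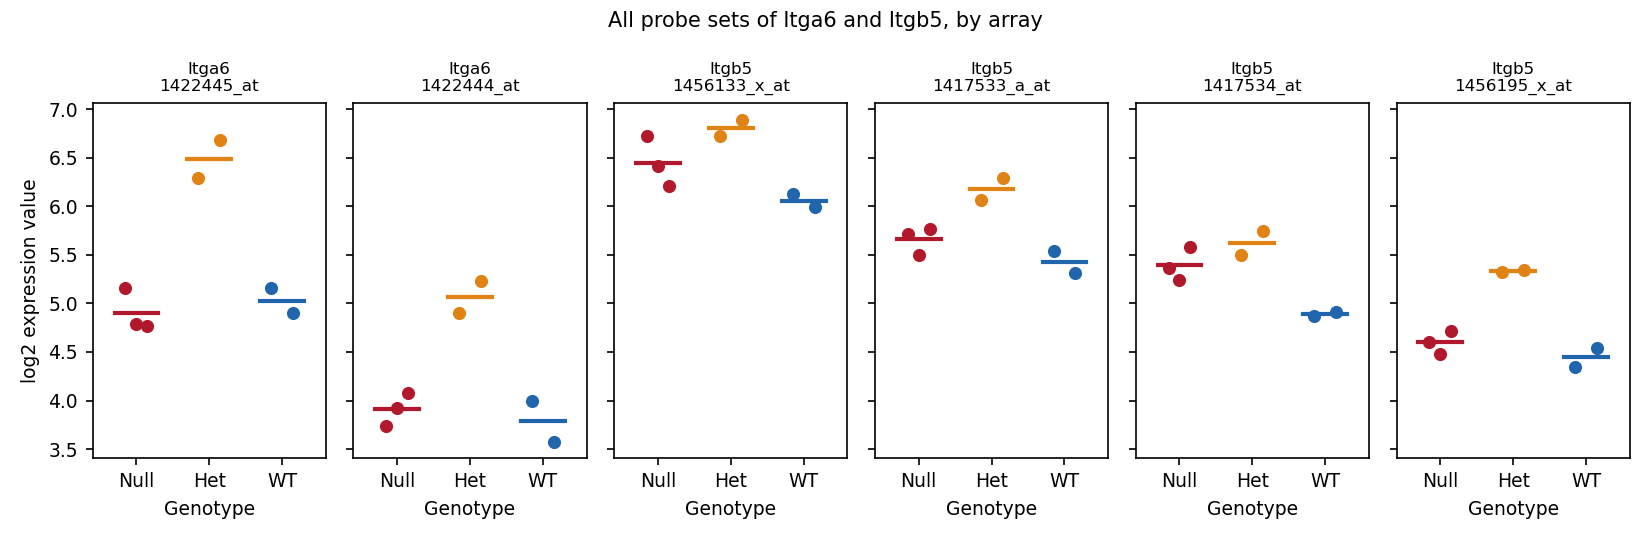
Log2 expression values of the 2 probe sets of Itga6 and the 4 probe sets of Itgb5 in null, heterozygous (Het) and wild-type (WT) cells; each point is an array and each bar a group mean. The heterozygous arrays lie above the wild-type arrays in all 6 probe sets, for the brightest probe sets at 6.29 and 6.69 against 5.16 and 4.90 (Itga6) and at 6.73 and 6.89 against 6.13 and 5.99 (Itgb5).

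Itgb5 encodes integrin β5, which pairs with αv to form a receptor for vitronectin, and lies on chromosome 16 (33829665 to 33949338, GRCm38.p6). It was at 6.72, 6.42 and 6.21 in null cells and 6.73 and 6.89 in heterozygous cells, against 6.13 and 5.99 in wild-type cells (log2). Both heterozygous arrays lay above all other arrays, and all 3 null arrays lay between them and the wild-type arrays. Heterozygous cells were 1.68-fold higher than wild type (log2 difference 0.75 ± 0.18, SE, limma adjusted p = 0.0432). Null cells were at 0.39 ± 0.16 against wild type (log2 difference, SE), with an unadjusted p of 0.0458 that did not pass limma's adjustment (0.882), and at -0.36 against heterozygous cells (adjusted p = 0.192).

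The brightest and the dimmest probe set of Itgb5 are of a type (suffix x) whose probes can also match other transcripts. In the fit of all probe sets, the dimmest rose as well in heterozygous against wild-type cells (log2 difference 0.89, limma adjusted p = 0.0150). So did the 2 probe sets without this suffix, by 0.75 and 0.73 on the log2 scale (limma adjusted p = 0.0328 and 0.0348). For null against heterozygous cells the 4 probe sets differed: the dimmest fell (-0.73, adjusted p = 0.0213) and the other 3 lay between -0.52 and -0.23 on the log2 scale (adjusted p = 0.0675 to 0.318). The call of Itgb5 in heterozygous against wild-type cells ended in 10 of 16 other settings tried, among them the fits without null replicate 2 (adjusted p = 0.0622), without either heterozygous array (0.145 for replicate 1, 0.117 for replicate 2) and without either wild-type array (0.126 and 0.216), the last 4 of which leave 1 array in a compared group, assumed to vary like the other groups, while the log2 difference stayed between 0.67 and 0.84 in all 16. Without null replicate 1 and heterozygous replicate 1 the difference was 0.84 (adjusted p = 0.124).

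The promoters of Itgb5 and of Itgav, its αv partner, are shown because Itgb5 passed the threshold, its partner did not, and both are in the RefSeq promoter table, which holds 17 of the 27 genes and was read on GRCm38.p6. Each stretch runs from 250 bases before to 50 bases after the start that the table gives, which for Itgav lies inside the annotated gene and not at its first base, 5′ to 3′ on the plus strand, and capitals mark GC boxes (GGGCGG on either strand).

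Itgb5 (chr16:33829415-33829714): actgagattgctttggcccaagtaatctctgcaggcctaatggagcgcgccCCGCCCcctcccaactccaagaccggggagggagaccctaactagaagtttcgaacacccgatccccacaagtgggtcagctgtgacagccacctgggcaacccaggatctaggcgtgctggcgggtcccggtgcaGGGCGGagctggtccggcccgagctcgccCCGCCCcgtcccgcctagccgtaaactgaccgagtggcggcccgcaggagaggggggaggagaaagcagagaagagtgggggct

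Itgav (chr2:83724147-83724446): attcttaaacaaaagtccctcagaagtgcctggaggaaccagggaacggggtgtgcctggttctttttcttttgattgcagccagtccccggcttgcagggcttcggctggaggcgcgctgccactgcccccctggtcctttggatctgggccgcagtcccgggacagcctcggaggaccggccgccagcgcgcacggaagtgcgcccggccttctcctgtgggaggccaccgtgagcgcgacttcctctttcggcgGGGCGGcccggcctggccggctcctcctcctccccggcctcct

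The Itgb5 stretch held 3 GC boxes at a GC content of 65.7% and the Itgav stretch 1 at 67.3%. A GC box was found in 35.7% of the 32851 promoters of the table. The AP-1 motif TGANTCA, present in 7.81% of promoters on either strand, and the TEAD motif CATTCC, present in 14.7%, were not among the letters of either window. These matches describe the sequence only.

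Itgav, on chromosome 2 (83722303 to 83806917, GRCm38.p6), was at 12.94, 13.08 and 13.04 in null cells and 12.61 and 13.00 in heterozygous cells, against 13.23 and 13.21 in wild-type cells (log2). All deficient arrays lay below both wild-type arrays. The log2 difference was -0.42 ± 0.15 in heterozygous (SE, limma adjusted p = 0.111) and -0.20 ± 0.13 in null against wild-type cells (adjusted p = 0.894), so neither passed. A second probe set of Itgav was at 6.26, 6.97 and 7.11 in null cells and 7.09 and 7.36 in heterozygous cells, against 7.57 and 7.58 in wild-type cells (log2). Its log2 difference of -0.79 ± 0.25 in null against wild-type cells was larger than that of the brightest probe set and did not pass either (SE, limma adjusted p = 0.804 in the fit of all probe sets). Its difference was -0.35 in heterozygous cells, and the remaining probe set had -0.18 in null and -0.02 in heterozygous cells. Without heterozygous replicate 2 the difference of the brightest probe set in heterozygous cells from wild type passed the threshold (log2 difference -0.62, adjusted p = 0.0441). Itgb3 and Itgb6, which also encode β partners of αv, were dim, with values of 4.04 to 4.67 and 3.14 to 3.70 on the 7 arrays. Itgb1, a further β partner given above, was not dim.

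Among the remaining integrins, the subunits of the fibronectin receptor α5β1 and of receptors for other ligands showed no change past the threshold. Itga5, which pairs with β1 to bind fibronectin, differed by 0.08 in heterozygous and by 0.12 in null against wild-type cells (log2). Itga8, whose product binds nephronectin, was at 4.59, 5.17 and 5.15 in null cells, 5.11 and 5.59 in heterozygous cells, and 5.52 and 5.37 in wild-type cells (log2). The null arrays all lay below the wild-type arrays, with a log2 difference of -0.48 (95% interval -0.99 to 0.04). Itga9, for a receptor of tenascin-C, had a wide spread, at 9.05, 9.45 and 10.19 in null, 9.09 and 9.62 in heterozygous, and 9.77 and 9.79 in wild-type cells. The lowest and the highest of the 7 values of Itga9 were both null arrays. A second probe set of Itga9 was at 7.67 and 7.77 in heterozygous, against 8.09 and 8.61 in wild-type cells (log2). Its difference of -0.63 ± 0.22 did not pass (SE, limma adjusted p = 0.122 in the fit of all probe sets). The third probe set differed by -0.26, with overlapping arrays. Itga2, a collagen receptor subunit, held the same deposited value, 5.07, on 5 of 7 arrays, so it carries little information.

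Of the subunits known mainly from blood cells none passed the adjusted threshold. Itga2b, the platelet subunit αIIb, was at 6.21, 6.10 and 6.14 in null, 6.34 and 6.41 in heterozygous, and 6.08 and 5.75 in wild-type cells. All deficient arrays lay above both wild-type arrays. Its log2 difference of 0.46 in heterozygous against wild-type cells (95% interval 0.14 to 0.77) did not pass (limma adjusted p = 0.0736). Itgb2, the β subunit shared by leukocyte integrins, lay below the 30th percentile on all 7 arrays, at 4.09, 4.54 and 4.07 in null, 4.05 and 4.31 in heterozygous, and 4.01 and 3.70 in wild-type cells. Its α partners Itgal, Itgam and Itgax were also too dim to be tested. The Itgb2 values of heterozygous and null arrays overlapped, but at this dim level they cannot be set against the macrophage markers given above. Itgb7 and Itga4, which together form a lymphocyte homing receptor, lay at 4.99 to 5.62 and at 3.76 to 4.15 over the 7 arrays.

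**Figure D3:**
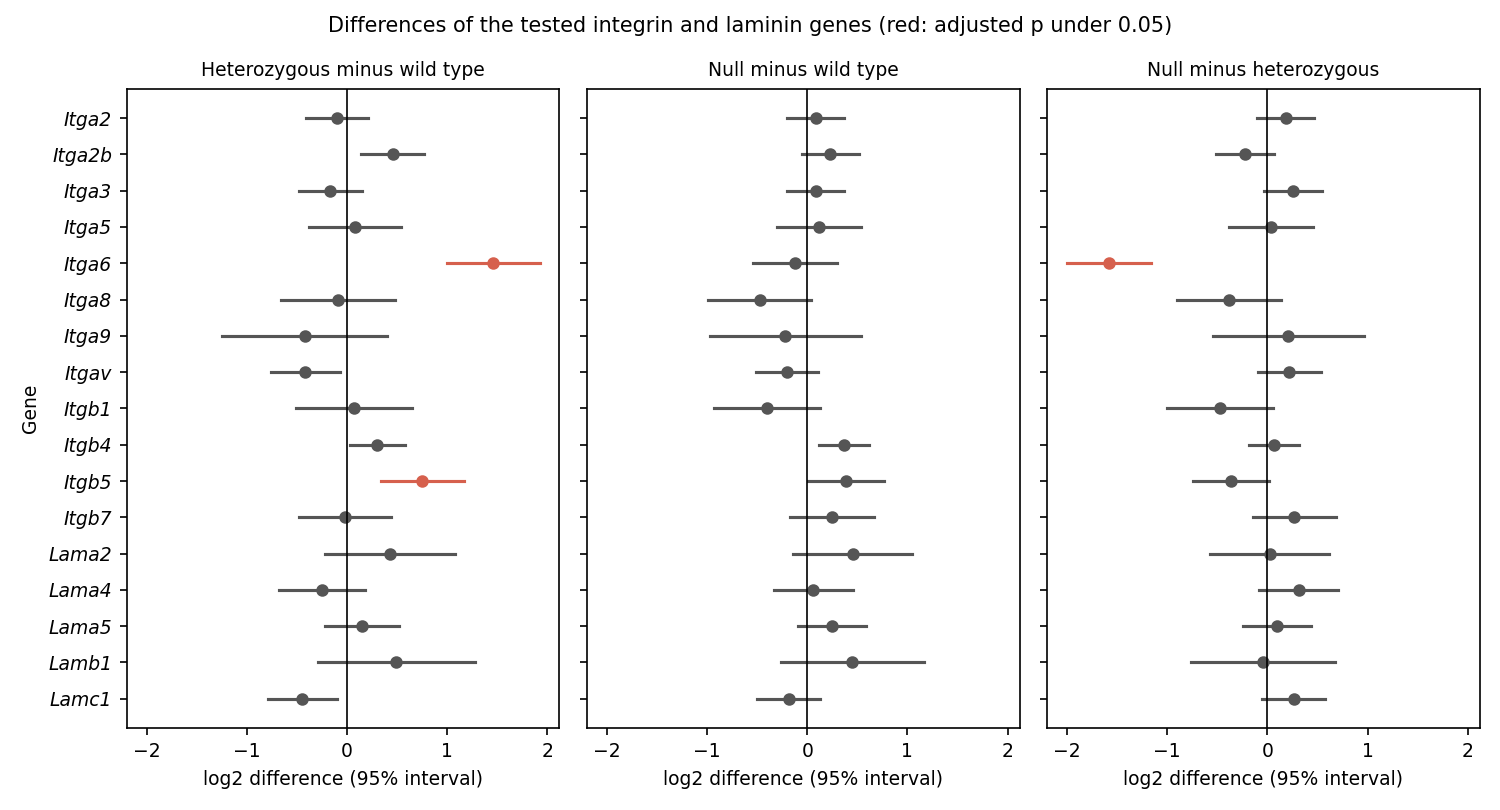
Log2 differences of the 17 tested integrin and laminin genes with 95% intervals from the linear model, for heterozygous minus wild type (left), null minus wild type (middle) and null minus heterozygous (right); red marks an adjusted p under 0.05. Itga6 (1.46) and Itgb5 (0.75) are the marked genes on the left and Itga6 (-1.58) on the right; the null minus wild type panel has none.

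The laminin chains showed no change past the threshold in any pair of genotypes. Lamc1, the γ1 chain of most laminins, was at 6.67, 6.79 and 6.79 in null cells and 6.32 and 6.66 in heterozygous cells, against 7.04 and 6.83 in wild-type cells (log2). All deficient arrays lay below both wild-type arrays. The log2 difference was -0.45 ± 0.15 in heterozygous against wild-type cells (SE, limma adjusted p = 0.0955) and -0.18 ± 0.13 in null cells (adjusted p = 0.894). The dimmer probe set of Lamc1 did not show this, at 5.43 and 5.49 in heterozygous, against 5.02 and 5.56 in wild-type cells. Lama4, a chain of vascular laminins, was at 8.10, 8.12 and 7.85 in null, 7.49 and 7.93 in heterozygous, and 7.83 and 8.09 in wild-type cells, with overlapping groups. Lama5, the other main vascular α chain, differed by 0.15 in heterozygous and by 0.25 in null against wild-type cells (log2), with 95% intervals of -0.22 to 0.52 and -0.09 to 0.59.

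Lama2, the α chain of the laminin of muscle and of pial and glial basement membranes, and Lamb1, the β1 chain, were highest in null replicate 1 and heterozygous replicate 1. Lama2 was at 6.28, 5.48 and 5.87 in null, 6.13 and 5.58 in heterozygous, and 5.41 and 5.44 in wild-type cells (log2). Lamb1 was at 5.53, 4.44 and 4.99 in null, 5.24 and 4.81 in heterozygous, and 4.68 and 4.39 in wild-type cells. These arrays are the ones with Xist and Y-linked transcripts together. The log2 difference of Lama2 was 0.45 for null and 0.43 for heterozygous against wild-type cells, and that of Lamb1 0.45 for null and 0.49 for heterozygous, none past limma's threshold (adjusted p = 0.341 to 0.894). Lamb1 lay above the 30th percentile on 3 arrays only, none of them wild type. It was thus tested only through the groups where it is high, against a dim wild-type group. Col3a1, a fibroblast collagen, was at 6.01, 5.19 and 6.23 in null, 7.48 and 6.11 in heterozygous, and 4.87 and 4.45 in wild-type cells, while of the 2 defining markers of the fibroblast list Col1a1 lay below the 30th percentile on all 7 arrays and Pdgfra above it on all 7. The summed linear level of the 10 fibroblast and meningeal markers was 14992 to 18081 in null, 11536 to 13676 in heterozygous and 15242 to 16479 in wild-type arrays. Pdgfra, also a progenitor marker, makes up most of this sum. Without it, the other 9 markers summed to 2122 to 6368 in null and 3766 to 3911 in heterozygous arrays, against 1514 to 2968 in wild-type arrays. Of the 7 tested, 2 rose in heterozygous against wild-type cells (Col1a2 and Col3a1) and 1 fell (Pdgfra), beside 4.2% and 5.95% of all genes. The arrays did not overlap for 5 that were higher and 1 that was lower. Of all genes, 26.2% did not overlap and were higher, and 35.1% did not overlap and were lower. The part of fibroblasts or meningeal cells in the laminin values was not tested. Lama1, Lama3, Lamb3 and Lamc3 were dim on all arrays. Lamb2, dim as well, was at 3.94, 3.76 and 3.94 in null cells and 4.35 and 4.20 in heterozygous cells, against 3.998 and 3.84 in wild-type cells.

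Among the 17 tested genes, the heterozygous and wild-type arrays did not overlap for 11, 7 higher and 4 lower in heterozygous cells (64.7%, beside 61.3% of all genes, 26.2% higher and 35.1% lower). For null against wild type the arrays did not overlap for 7 (41.2%, beside 21.7%, 10.7% higher and 11% lower), 4 higher and 3 lower, and for null against heterozygous for 6 (35.3%, beside 43.7%, 25.7% higher and 17.9% lower), 2 higher and 4 lower. All 5 deficient arrays lay on the same side of both wild-type arrays for 6 of the 17 genes (35.3%, beside 15.4% of all genes, 7.11% above and 8.28% below). They were Itga2b, Itgb4, Itgb5 and Lama2, which were higher, and Itgav and Lamc1, which were lower. Itgb4 exceeded the 30th percentile only on deficient arrays, so it was tested only through the groups where it is high. It also counts among the 11 and the 7 above, and Lamb1, tested in the same way, counts among the 11. All counts in this paragraph are for a small set of genes, and the set was not tested. For the genes that did not pass in null against wild type, the log2 differences lay between -0.48 and 0.45 and their 95% intervals reached from -0.99 to 1.17, so a p that missed the threshold does not show equal levels.

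Of 43 listed genes of the machinery that links integrins to actin, 33 were tested, and in heterozygous against wild-type cells 1 rose and 2 fell (9.09%, beside 10.1% of all genes, a share near the background; median log2 difference -0.08, against -0.04 for all genes). Actn1, an α-actinin that crosslinks actin at adhesions, was at 6.32, 6.55 and 6.29 in null cells and 7.49 and 7.28 in heterozygous cells, against 6.66 and 6.67 in wild-type cells (log2). It rose by 0.72 ± 0.13 (SE, limma adjusted p = 0.0237) and was lower in null than in heterozygous cells (log2 difference -0.997, adjusted p = 0.00971). Vcl, which encodes vinculin, the protein that reinforces the link of talin to actin, was at 8.77, 8.68 and 8.89 in null, 8.02 and 8.13 in heterozygous, and 8.59 and 8.83 in wild-type cells. It fell by 0.63 ± 0.13 in heterozygous against wild-type cells (adjusted p = 0.0317), and Rsu1, a partner of the adaptor PINCH1, fell by 0.65 ± 0.15 (adjusted p = 0.0429). In null against heterozygous cells 4 of the 33 were called (12.1%, beside 8.96% of all genes). Of these, 3 rose, Vcl by 0.71, Rsu1 by 0.63 and the talin gene Tln1 by 0.48 on the log2 scale, and Actn1 fell. In null against wild-type cells limma called 0 of 33, with 3 at an unadjusted p under 0.05.

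Of 32 other integrin ligands listed, 19 were tested, and in heterozygous against wild-type cells 2 rose and 3 fell (26.3%, beside 10.1% of all genes; median 0.01). Tnc, for tenascin-C, a glial matrix protein bound by several integrins, was at 5.50, 6.67 and 5.48 in null cells and 8.84 and 8.66 in heterozygous cells, against 6.22 and 5.68 in wild-type cells (log2; difference from wild type 2.80 ± 0.40, SE, limma adjusted p = 0.0124). Ccn2, a matricellular protein of the connective tissue growth factor family, rose by 1.66 ± 0.32 (adjusted p = 0.0264). The neural adhesion molecule L1cam fell by 1.60 ± 0.29 (adjusted p = 0.0216), Edil3, an RGD protein bound by αv integrins, by 0.97 ± 0.17 (adjusted p = 0.0205) and the growth factor Tgfb3 by 0.85 ± 0.18 (adjusted p = 0.0337). In null against heterozygous cells 2 rose (L1cam by 1.51 and Tgfb3 by 0.78) and 3 fell (Tnc, Ccn2 and Ccn3, with log2 differences of -2.86, -1.43 and -2.95; 26.3%, beside 8.96% of all genes), and in null against wild-type cells limma called 0 of 19, with 1 at an unadjusted p under 0.05. The heterozygous values of Ccn3 were far apart, at 5.19 and 7.72. Ccn3 lay above the 30th percentile only on these arrays, so it was tested only through the group where it is high, and the size of its difference is taken against a dim null group. Fn1 and Vtn, for fibronectin and vitronectin, did not pass in any pair.

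Of 30 basement membrane components and other laminin partners, 22 were tested, and in heterozygous against wild-type cells 2 rose and 1 fell (13.6%, beside 10.1% of all genes; median -0.12). Col18a1, for the collagen of vascular basement membranes that yields endostatin, was at 5.62, 6.50 and 6.30 in null cells and 7.74 and 8.32 in heterozygous cells, against 6.50 and 5.60 in wild-type cells (log2; difference from wild type 1.98 ± 0.39, SE, limma adjusted p = 0.0269). Col4a5, a chain of collagen IV, rose by 2.57 ± 0.55 (adjusted p = 0.0342), with wild-type arrays far apart at 5.29 and 3.28. It exceeded the 30th percentile on both heterozygous arrays, 1 wild-type array and 0 null arrays. It thus passed the filter only through the heterozygous arrays, where it is high, and its null group is dim. Utrn, which encodes utrophin of the dystroglycan complex that anchors laminin to cells, fell by 0.66 ± 0.16 (adjusted p = 0.0459). In null against heterozygous cells 0 rose and 3 fell, Col18a1, Col4a5 and the matrix protein Sparc, with log2 differences of -1.89, -2.06 and -1.01 (13.6%, beside 8.96% of all genes). In null against wild-type cells limma called 0 of 22, with 2 at an unadjusted p under 0.05. Without null replicate 1 and heterozygous replicate 1 limma called 0% of all genes in any pair, and hence 0 of these 3 lists, with 6, 8 and 5 of the adaptors, ligands and basement membrane genes at an unadjusted p under 0.05 in heterozygous against wild-type cells. In the heterozygous arrays the macrophage markers and some astrocyte markers given above were higher and the progenitor markers lower. The summed linear level of 7 neuron markers was 2379 to 2683 in null, 1311 to 1747 in heterozygous and 2455 to 2645 in wild-type arrays. Of the 5 tested, limma called 2 lower (40%, beside 5.95% of all genes that fell) and did not call 3 in heterozygous against wild-type cells. The defining neuron gene Rbfox3 lay below the 30th percentile on all 7 arrays. The part of these cell types in the genes called in the 3 lists was not tested.

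**Figure D4:**
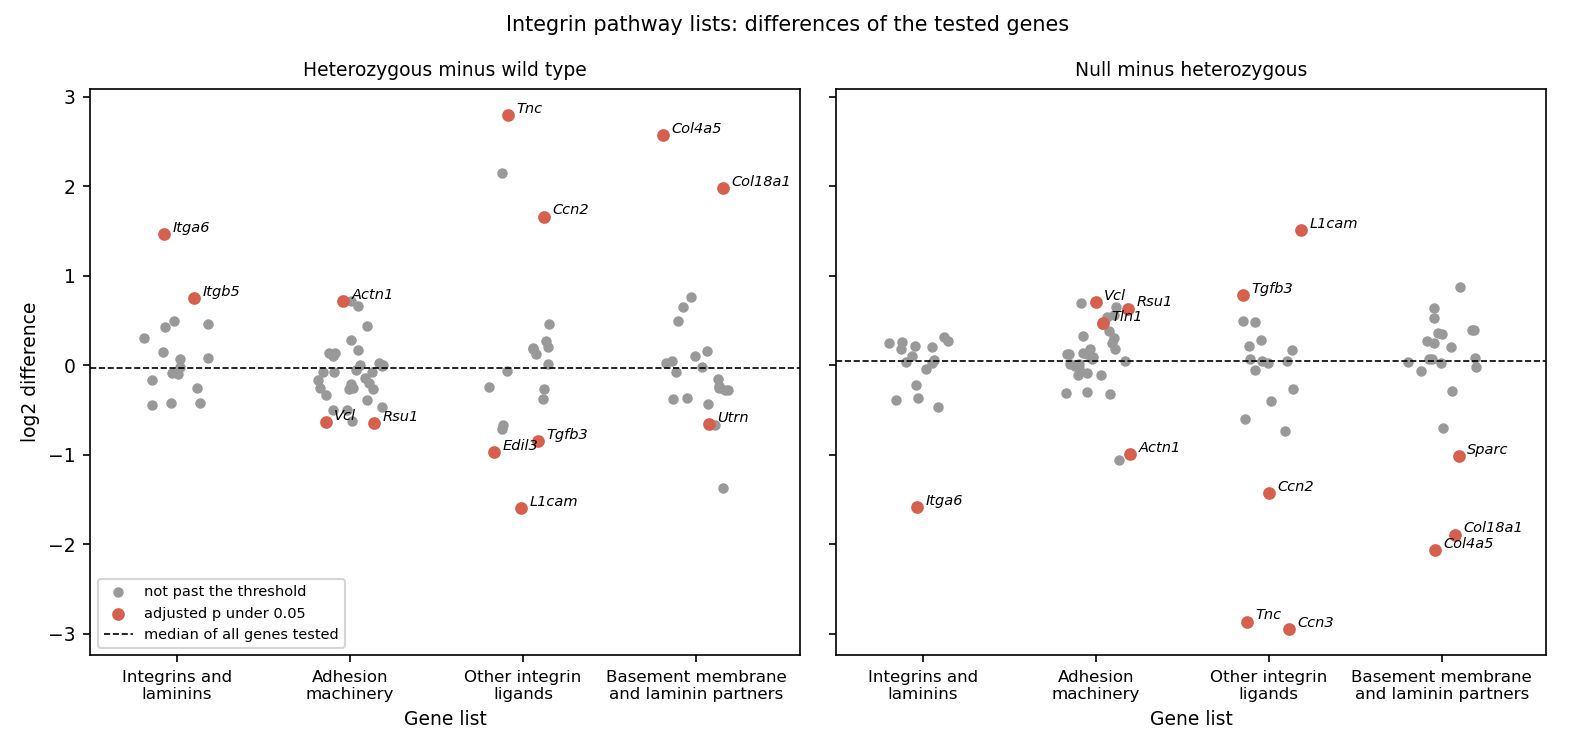
Log2 differences of the tested genes of 4 lists, for heterozygous minus wild type (left) and null minus heterozygous (right); each point is a gene, named and red where its adjusted p is under 0.05, and the dashed line is the median of all genes tested. Tnc (2.80) and Col4a5 (2.57) lie highest on the left, and Ccn3 (-2.95) and Tnc (-2.86) lowest on the right; the 2 comparisons share the heterozygous arrays.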

How the data were processed

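RNA of sorted GFP+ DAPI- glioma cells (75 ng per sample, 7 samples, 3 genotypes) was labelled and hybridised to Affymetrix 3' arrays, per the labels' protocols. The deposited log2 values came from RMA and Partek 6.6, per the submitters' processing notes. RMA gives the arrays a common distribution, so a shift shared by all genes cannot be seen. Precision is limited by the few arrays.

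By GEO's platform annotation, 20380 of the 22626 non-control probe sets have 1 gene, 691 have several and 1555 have none. Only the first kind was used, each of 12393 genes by its brightest probe set. The 9243 genes above the 30th percentile on at least 2 arrays were fitted in 1 linear model over all 7 arrays with limma 3.58.1 (R 4.3.3), with 4 residual degrees of freedom before moderation. The fit was tested on simulated data. Called means a Benjamini-Hochberg adjusted p under 0.05 over all genes tested. Members, lists and tests were chosen with earlier results of these data known. Members past the threshold and their partners, and up to 6 called genes per list, were named by rule. Other members given by array, and Col3a1, Fn1 and Vtn, were chosen after their values were seen. Alternatives covered the filter, probe set choice, moderation, arrays fitted, centring, a covariate of RNA quality, the replicate number as a block, and each array left out. The fit of all probe sets and the fit without null replicate 1 and heterozygous replicate 1 were added after seeing the data.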

Additional observations from a re-analysis of the deposited data

How the results depend on the processing

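Null against wild-type cells gave 0 calls among integrins and laminins and among each of the 3 other lists in all 16 other settings tried. No result changed direction past the threshold. Itga6 kept its call in 13 of 15 alternatives for heterozygous against wild-type cells (log2 1.26 to 1.66) and in 13 of 15 for null against heterozygous cells (-1.78 to -1.37). Itgb5 kept its call in 6 of 16.

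For heterozygous against wild-type cells, the members called numbered 1 with the 50th percentile filter, with the arrays of only these 2 groups, with the RNA quality covariate and with the replicate block, and 0 without moderation. Their median was -0.33 with the 50th percentile filter, where the null against wild-type median was -0.19. The adaptors called numbered 0 without moderation, with only the 2 groups and with the replicate block, and 1 with the covariate. The ligands called numbered 3 with the 50th percentile filter, 1 with only the 2 groups, 2 with the covariate, and 0 without moderation and with the block. The basement membrane genes called numbered 0 in these 4 fits without moderation, with only the 2 groups, with the covariate and with the block.

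For null against heterozygous cells, the members called numbered 2 with no filter (Itga6 and Itga7) and with probe sets averaged per gene (Itga6 and Itgb5), and 0 with the 50th percentile filter, which does not test Itga6, without moderation and with the block. The adaptors called numbered 2 with only the 2 groups or the covariate, and 0 without moderation and with the block. The ligands called numbered 2 with the 50th percentile filter or only the 2 groups, 3 with the covariate, and 0 without moderation and with the block. The basement membrane genes called numbered 1 with no filter or the covariate, and 0 without moderation and with the block. The F test called 2 members with no filter and with the mean of probe sets, and 0 with the 50th percentile filter, without moderation and with the block. Without moderation limma's 0 calls went with 6 members at an unadjusted p under 0.05 in heterozygous against wild-type cells and 1 in null against heterozygous cells.

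The replicate numbers are no pairing by the labels: the correlations of deviations of same-numbered arrays were 0.11 for heterozygous with wild type, -0.18 and -0.41 for null with wild type, and 0.02 and -0.19 for null with heterozygous. With the replicate block the adjusted p of Itga6 was 0.0489 (heterozygous against wild type) and 0.0775 (null against heterozygous, log2 difference -1.52), and that of Itgb5 was 0.0721 (limma).

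Leaving out 1 array at a time, the calls in heterozygous against wild-type cells ran from 0 to 2 for members, 0 to 3 for adaptors, 0 to 4 for ligands and 0 to 3 for basement membrane genes, with a members' median of -0.10 to 0.15. In null against heterozygous cells they ran from 1 to 1, 0 to 5, 0 to 3 and 0 to 3, with a median of 0.01 to 0.19. In null against wild-type cells the calls were 0 and the median 0.04 to 0.15, and the F test called 0 to 1 members. Without null replicate 1 and heterozygous replicate 1 together, a fit added after seeing the data, limma called 0% of all genes in any pair or by the F test, and hence 0 members and 0 genes of the lists, with 3 members at an unadjusted p under 0.05 in heterozygous against wild-type cells, 3 in null against heterozygous cells and 3 by the F test (limma). The cause of these losses was not tested, beyond the fewer arrays of the fits that leave arrays out. Where 1 array of a group remained, it was assumed to vary like the other groups.

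With 2 or 3 arrays a group, small differences could not be told from the spread, and 10 of 27 members were too dim to test.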

Other observations

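Null replicate 1 held the highest or the lowest of the 7 values for 8 of the 17 tested integrin and laminin genes (47.1%, beside 29.4% of all genes tested). Heterozygous replicate 1 did so for 5 (29.4%, beside 50.4%).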
